A study of Arabidopsis thaliana with 12 samples.

Results

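The 6 control libraries of an Arabidopsis thaliana seedling series of 12 fell into 2 sides that cut across genotype. Side A holds WT control 1, WT control 3 and ahl10-1 control 1, and side B holds WT control 2, ahl10-1 control 2 and ahl10-1 control 3. The sides were chosen from the expression of these same libraries, so differences between them are described here and not tested. The labels give no reason for the split: they carry 1 date for every library and do not say what a replicate number marks.

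Messenger RNA of whole seedlings was sequenced from the wild type Col-0 (WT) and from ahl10-1, the T-DNA line Salk_073165. The mutation lies in AHL10 (AT2G33620), which encodes an AT-hook DNA-binding protein. All seedlings grew on vertical agar plates without sugar under continuous light. Control medium had a water potential of -0.25 MPa. The stress treatment began on day 7 with a move to agar at -0.7 MPa, lowered with polyethylene glycol so that roots take up less water. All were collected on day 11, 96 h after that transfer. Each genotype and treatment had 3 libraries from what the submitters call independent experiments. The labels differ on the control seedlings: 1 text has them moved to fresh plates, and the other has them growing on without a move. Handling of the control seedlings is therefore not settled by the labels.

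Seedlings respond to touch, bending and wounding within minutes, with a burst of calcium-binding proteins and of WRKY, ERF and zinc finger transcription factors, and wounding also sets off jasmonate synthesis. The circadian clock keeps running in continuous light, with morning and evening genes that repress each other. Leaf tissue carries most of the mRNA for the photosynthetic apparatus, so photosynthesis genes read both the state and the share of green tissue.

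The 6 control libraries held 60691369 to 66906434 reads in genes, and levels below are CPM (reads of a gene per 1000000 reads in genes) after TMM scaling, which corrects for library composition. AHL10 was at 46.1, 46.3 and 46.8 CPM in WT control libraries and at 21.3, 22.3 and 25.7 CPM in ahl10-1 control libraries, so the genotype labels hold on both sides. Its log2 difference of side B minus side A was -0.11. Chloroplast-encoded genes held 0.263%, 0.408% and 0.487% of reads on side A and 0.165%, 0.122% and 0.506% on side B, and these ranges overlap. The TMM factor of ahl10-1 control 3 was 0.886, while those of the other 5 control libraries were between 0.965 and 1.02. Side A has 2 WT libraries and side B has 2 ahl10-1 libraries. Each difference is therefore the mean of 2 differences, each taken within a genotype.

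The split was the leading but not a large pattern among control libraries. The first principal component, with 31.4% of the variance, placed WT control 1 at -31.9, ahl10-1 control 1 at -21.8 and WT control 3 at -18.4, and side B at 8.6 (WT control 2), 25.8 (ahl10-1 control 3) and 37.7 (ahl10-1 control 2). The second component, with 23.2%, did not follow the sides. Over all genes, the root mean square log2 difference was 0.421 to 0.483 within a side (6 pairs) and 0.434 to 0.542 across sides (9 pairs). These ranges overlap, so some libraries of opposite sides were closer than some of the same side.

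**Figure D1:**
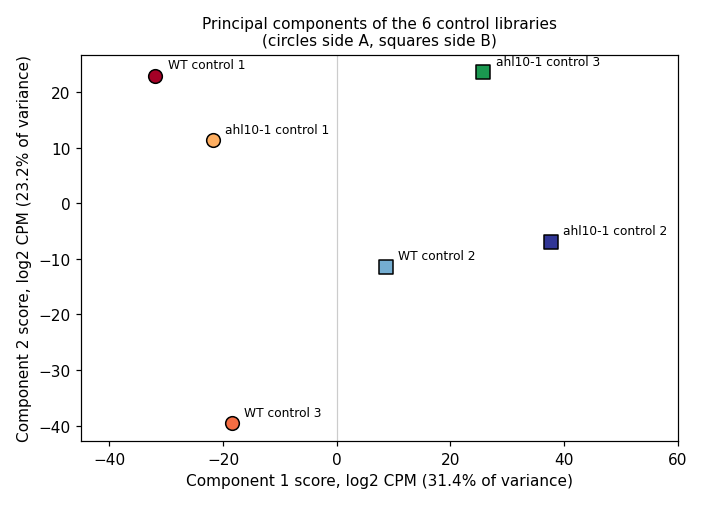
Scores of the 6 control libraries on the first 2 principal components of log2 CPM over 22604 genes; circles are side A and squares are side B. Side A lies between -31.9 and -18.4 on component 1 and side B between 8.6 and 37.7, while component 2 mixes the sides.

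A gene was counted as following the split when its 3 libraries on one side were all above the 3 on the other and the difference was at least 2-fold, or 1 on the log2 scale. Of 22604 genes passing the filter on low counts, 131 followed it with side A higher (0.58%) and 51 with side B higher (0.226%). Since the split was chosen on these values, nothing is read from these shares. Scaling to total reads, which drops the composition correction, gave 196 genes higher on A and 35 higher on B. At least 5 CPM on the higher side was reached by 33 and 13 of the 182 genes. Without the size limit, side A was wholly above side B in 10.7% of genes and wholly below it in 11.9%. At the limit, PCC1 was just inside at 1.01 and AT3G22235 just outside at 1.00.

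Single libraries led the lists. Among the 33 genes higher on side A with at least 5 CPM, WT control 1 was highest in 24, ahl10-1 control 1 in 8 and WT control 3 in 1. Among the 13 higher on side B, ahl10-1 control 2 was highest in 11. Over all 131 genes higher on A, WT control 1 was highest in 62 and ahl10-1 control 1 in 53.

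Among the 12 genes with the widest gap and side A higher, 10 had their highest value in WT control 1. Values are given for WT control 1, WT control 3 and ahl10-1 control 1 (side A), then for WT control 2, ahl10-1 control 2 and ahl10-1 control 3 (side B), here and throughout. RRTF1, also called ERF109, a redox-responsive transcription factor that links wounding with auxin synthesis, was at 14.6, 1.18 and 1.07 CPM on side A. On side B it was at 0.0993, 0.096 and 0.539 CPM. ORA47, a transcription factor that activates jasmonate synthesis genes, was at 30.5, 6.81 and 6.94 CPM on side A and at 1.47, 0.528 and 4.41 CPM on side B. For both genes WT control 1 stands far above the rest, and ahl10-1 control 3 comes closest to side A. Their log2 differences were -3.52 and -2.70.

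The other 10 of these genes had smaller differences. PBP1, a calcium-binding partner of the kinase PINOID, was at 24.0, 9.86 and 7.56 CPM on side A and at 3.72, 2.61 and 5.06 CPM on side B. FBS1, an F-box protein gene induced by stresses, was at 34.2, 8.29 and 5 CPM on side A and at 3.39, 3.20 and 3.18 CPM on side B. CNI1, a ubiquitin ligase of the carbon to nitrogen response, was at 27.7, 11.4 and 11.9 CPM against 5.49, 5.51 and 8.24 CPM. In these 3 genes WT control 1 lay far above the other libraries, and on side B the values of FBS1 were nearly equal. WRKY33, a regulator of camalexin synthesis in defence, differed by -1.46, and the unnamed genes AT2G28400, AT5G52750, AT5G66650 and AT2G38790 by -1.11, -1.08, -1.44 and -1. ADF9, an actin-binding factor (-1.3), and UMAMIT19, of a transporter family (-1.16), had their highest values in other libraries, ahl10-1 control 1 and WT control 3.

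The 12 genes with the widest gap and side B higher were more even. LURP1, first known for its induction by a downy mildew, was at 8.02, 10.6 and 12.7 CPM on side A and at 22.9, 23.1 and 28.2 CPM on side B. PCC1, named for its pathogen and circadian control, was at 36.8, 32.8 and 42.4 CPM against 66.0, 82.6 and 98.1 CPM. ACD6, a membrane protein that promotes salicylic acid defence, was at 28.1, 38.3 and 32.7 CPM against 57.6, 77.9 and 75.8 CPM. These 3 differences were 1.16, 1.01 and 1.02, and within a genotype they were 0.81 to 1.31. Their sign in each genotype was fixed by the rule that chose the genes. WT control 2 alone stands for side B in WT, and ahl10-1 control 1 alone for side A in ahl10-1.

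NIT4, an enzyme of cyanide detoxification, differed by 1.15, with 9.07, 9.69 and 8.84 CPM on side A and 17.0, 29.2 and 20 CPM on side B. LHCB4.3, a minor light-harvesting protein, was at 31.2, 20.7 and 28.2 CPM against 54.6, 77.5 and 51.8 CPM, a difference of 1.14. For both, ahl10-1 control 2 was highest. RL1, a RADIALIS-like gene, differed by 1.31. The other 6, AT4G01490, AT3G28270, AT4G19430, AT5G42760, AT2G27420 and AT3G15310, differed by 1.11, 1.27, 1.07, 1.04, 1.04 and 1.27, and none has a gene symbol in the table used.

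**Figure D2:**
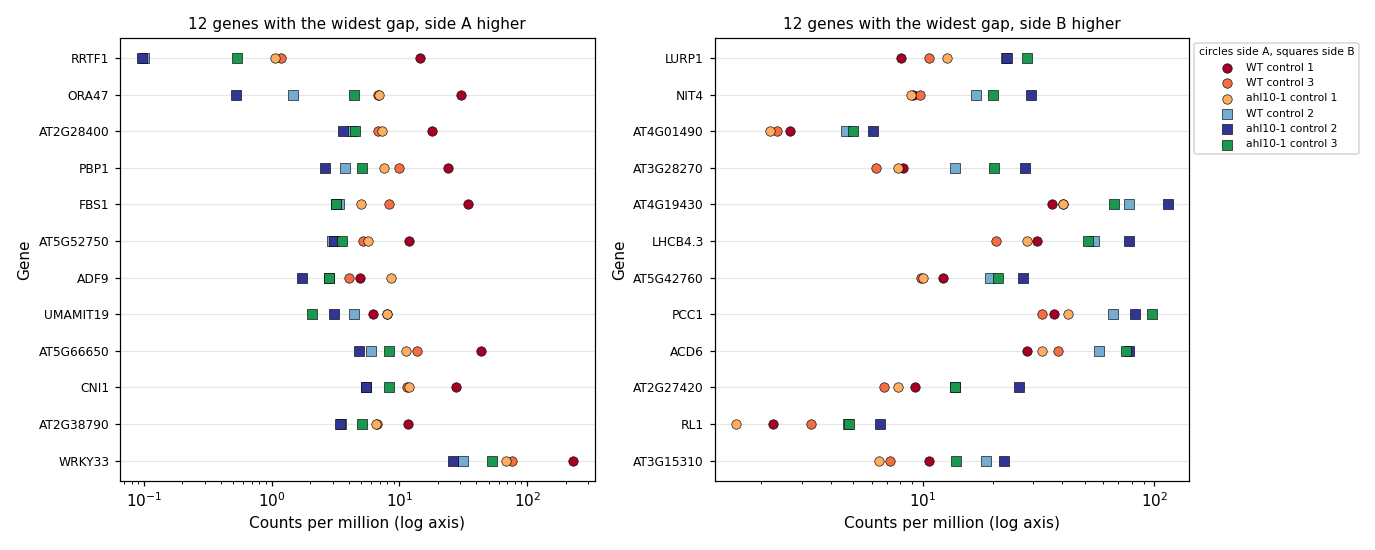
CPM (log axis) of the 12 genes with the widest gap in each direction, 1 point per control library; circles are side A and squares side B. On the left WT control 1 is the highest point of 10 genes, and on the right ahl10-1 control 2 is the highest of 10.

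Genes of touch and rapid mechanical response showed the largest difference of the 33 gene lists examined, with a median log2 difference of -1.23 over 21 genes against -0.02 over all genes. All 21 were lower on side B on average, yet 6 of 21 had no overlap between the sides and 4 of 21 (RRTF1, WRKY33, WRKY53 and ERF6) also passed 2-fold. Counts without overlap, in this list and in those that follow, stand beside 10.7% of all genes with A above B and 11.9% with B above A. Nothing is read from them, since the sides were chosen on these libraries. Every one of the 21 was highest in WT control 1, and 18 were lowest in ahl10-1 control 2. Scaled to total reads, 13 of 21 did not overlap. Without ahl10-1 control 3, whose levels were close to those of WT control 3 and ahl10-1 control 1, 19 of 21 did not overlap. With fewer libraries to compare, that rule is easier to meet.

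WRKY33 was at 228, 76.2 and 68.2 CPM on side A and at 31.5, 26.3 and 53.4 CPM on side B. ERF6, an ethylene response factor that restrains leaf growth under osmotic stress, was at 121, 35.4 and 26.2 CPM against 10.5, 6.93 and 24.1 CPM. WRKY53, a regulator of leaf senescence, was at 16.7, 5.19 and 8.02 CPM against 2.83, 2.93 and 4.33 CPM. In all 3 genes ahl10-1 control 3 was the highest library of side B. The next examples were chosen after their values were seen. TCH4, a cell wall enzyme gene named for touch, was at 199, 48.6 and 67.7 CPM against 22.4, 14.4 and 52.8 CPM. TCH3, a calmodulin-like gene, was at 412, 155 and 196 CPM against 94.9, 57.8 and 160 CPM. In both, ahl10-1 control 3 lay above WT control 3.

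As medians relative to the mean of the 6 control libraries, the touch list stood at 2.00 in WT control 1, 0.26 in WT control 3, -0.15 in ahl10-1 control 3, -0.21 in ahl10-1 control 1, -0.79 in WT control 2 and -1.24 in ahl10-1 control 2 (log2). The order is a series of steps rather than 2 levels, and ahl10-1 control 3 and ahl10-1 control 1 stand next to each other although they are on opposite sides. The list differed by -1.97 in WT alone and by -0.49 in ahl10-1 alone. Without WT control 1 its median was -0.83. The 6 stress libraries stood at -1.92 to -1.20, below every control library but ahl10-1 control 2.

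**Figure D3:**
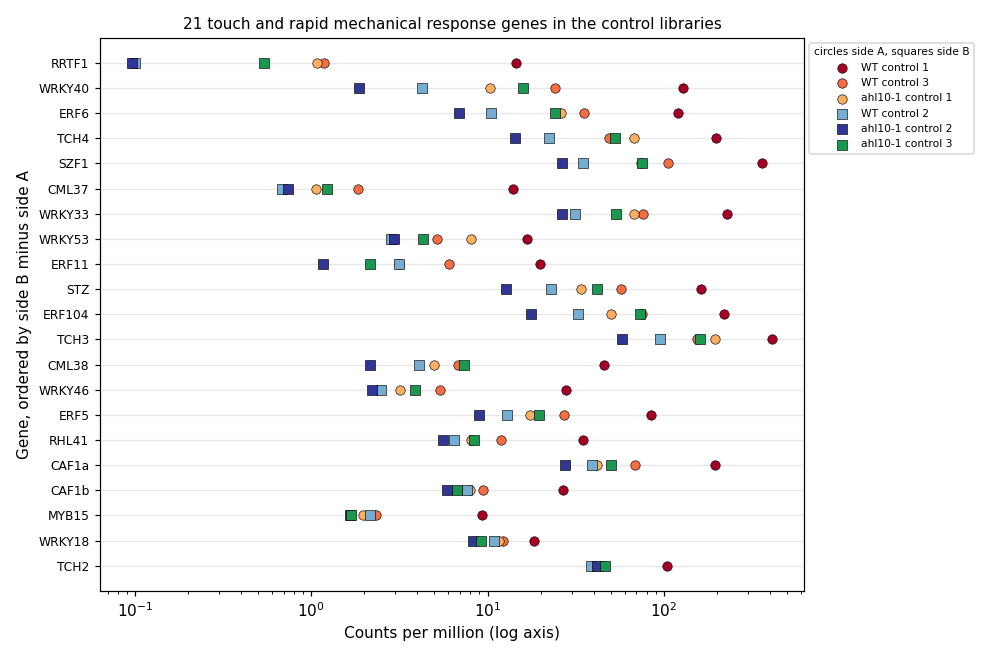
CPM (log axis) of the 21 touch and rapid mechanical response genes in the 6 control libraries, ordered by the difference of side B minus side A. WT control 1 is the highest point of all 21 genes and ahl10-1 control 2 the lowest of 18, while ahl10-1 control 3 mixes with side A.

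The 250 bases upstream of the annotated gene start were read for tested nuclear genes (RefSeq, assembly TAIR10.1), and 22365 had such a window. The motifs were chosen with these results known. The W-box, TTGACC or TTGACT on either strand and bound by WRKY factors, was in 7 of 21 touch genes (33.3%), in 45 of 123 genes higher on A (36.6%), in 20 of 50 higher on B (40%) and in 28.4% of all windows. The rapid stress response element CGCGTT was in 1 of 21 touch genes (4.76%), 7 of 123 genes higher on A (5.69%), 2 of 50 higher on B (4%) and 2.79% of all. The G-box CACGTG was in 11.4% of windows of genes higher on A, 4% of those higher on B and 7.3% of all. The GCC-box GCCGCC, bound by ERF factors, was in 3.25%, 2% and 1.96%, and the telo-box AAACCCTA of ribosomal and growth genes in 1.63%, 6% and 3.67%. The windows of WRKY33 and RRTF1 are shown because these genes had gaps among the widest; capitals mark a GCC-box and then 2 W-boxes in the first, the W-boxes on the strand opposite to the gene, and a G-box in the second, which held no W-box. Coordinates here and below are those of TAIR10.1, and each sequence reads in the direction of its gene.
WRKY33 (AT2G38470, chr2:16107985-16108234, plus strand): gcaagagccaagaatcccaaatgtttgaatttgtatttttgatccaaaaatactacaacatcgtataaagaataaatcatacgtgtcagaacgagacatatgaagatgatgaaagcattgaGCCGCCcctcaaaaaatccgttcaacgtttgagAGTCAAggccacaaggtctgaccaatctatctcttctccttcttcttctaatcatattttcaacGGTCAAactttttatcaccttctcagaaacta
RRTF1 (AT4G34410, chr4:16451626-16451875, plus strand): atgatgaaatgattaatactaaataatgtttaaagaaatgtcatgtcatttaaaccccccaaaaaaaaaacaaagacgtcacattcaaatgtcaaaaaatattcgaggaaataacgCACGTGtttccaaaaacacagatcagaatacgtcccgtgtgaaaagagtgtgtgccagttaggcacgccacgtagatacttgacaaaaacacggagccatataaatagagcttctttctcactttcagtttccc

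Jasmonate and wounding genes differed among themselves. Of 24 genes, 7 were higher on A without overlap (10.7% over all genes), 1 was higher on B (11.9%) and 4 followed at 2-fold with A higher. The list's median was -0.21. The 4 were JAZ5, JAZ7 and JAZ8, repressors of jasmonate signalling that are themselves induced by jasmonate, and LOX4, a lipoxygenase of jasmonate synthesis. JAZ5 was at 5.49, 2.85 and 6.01 CPM on side A and at 2.00, 1.76 and 1.99 CPM on side B.

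JAZ7 was at 1.56, 0.705 and 3.95 CPM on side A against 0.645, 0.384 and 0.316 CPM, and JAZ8 at 1.01, 0.352 and 1.64 CPM against 0.298, 0.208 and 0.149 CPM. In all 3 JAZ genes ahl10-1 control 1, not WT control 1, was highest. LOX4 was at 13.1, 4.02 and 5.73 CPM against 2.25, 3.15 and 3.74 CPM. The following were chosen after their values were seen. MYC2, the main activator of jasmonate responses, was at 153, 85.0 and 87.9 CPM against 55.6, 49.4 and 62.4 CPM. VSP2, a storage protein gene that accumulates after wounding, was at 66.1, 83.8 and 86.9 CPM against 90.9, 79.0 and 73.1 CPM. Its sides overlapped, and so did those of VSP1 and CORI3, while LOX2 was at 79.2, 140 and 142 CPM on side A and higher on side B at 165, 179 and 156 CPM.

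Defence genes were found on both sides. In the salicylic acid and PR list, 5 of 19 tested genes were higher on A without overlap and 3 on B, beside 10.7% and 11.9% of all genes, with a median of -0.17. ACD6 followed at 2-fold with B higher. GRX480, a glutaredoxin between salicylic acid and jasmonate signalling, was higher on A, at 3.77, 1.65 and 2.56 CPM against 1.17, 1.36 and 1.17 CPM. The camalexin and chitin-like list had 3 of 15 genes higher on A and a median of -0.23. The ethylene list had 2 of 16 higher on A and 1 on B (median -0.11), and PDF1.3, a defensin gene, followed at 2-fold with B higher at levels under 1 CPM.

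Genes of cold and CBF response were lower on B on average in 14 of 14 genes, with a median of -0.45, and 4 of 14 had no overlap. CBF2, a cold response activator chosen after its values were seen, was at 23.9, 5.81 and 2.5 CPM against 1.84, 0.896 and 2.79 CPM, which overlap. WT control 1 was again the highest, in this gene and in 8 of the 14. The abscisic acid and low water potential list had 4 of 17 genes higher on A and a median of -0.33. P5CS1, the proline synthesis enzyme chosen after its values were seen, was at 81.3, 79.1 and 91.8 CPM against 61.8, 66.5 and 69.6 CPM.

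Photosynthesis genes were read in 3 classes. Of 26 nuclear genes of Rubisco and the photosystems, 5 had side B wholly above side A and none the reverse, with a median of 0.23 (0.04 in WT and 0.44 in ahl10-1). Over all genes 11.9% had side B wholly above. The 5 were all 4 small subunit genes of Rubisco, the enzyme that fixes carbon dioxide, and RCA, the activase that keeps it active. Their differences were 0.50 (RBCS1A), 0.80 (RBCS1B), 0.88 (RBCS2B), 0.67 (RBCS3B) and 0.68 (RCA), below the 2-fold limit. Fewer green cells and less of these mRNAs per cell cannot be told apart in whole seedlings.

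RBCS2B and RCA are given as examples chosen after their values were seen. RBCS2B was at 2250, 1880 and 2050 CPM on side A and at 3260, 4470 and 4310 CPM on side B. RCA was at 6910, 5420 and 5780 CPM against 8430, 10300 and 11400 CPM. Side A was the narrower in both. The differences were 0.66 and 0.46 in WT and 1.1 and 0.9 in ahl10-1. Their sign in each genotype is fixed, since both genes had side B wholly above side A. As given above, a lone library stands for side B in WT and for side A in ahl10-1. RBCS1B and RBCS3B are similar copies, and 13% and 10.8% of their reads were multi-mapped. Of the 15 light-harvesting genes in the list none separated the sides, and 14 were highest in ahl10-1 control 3. LHCB4.3, given above and not in the list, did separate them, by 1.1 in WT and 1.17 in ahl10-1. Their median difference was 0.10, and that of 6 photosystem subunits was 0.30 with no gene free of overlap.

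**Figure D4:**
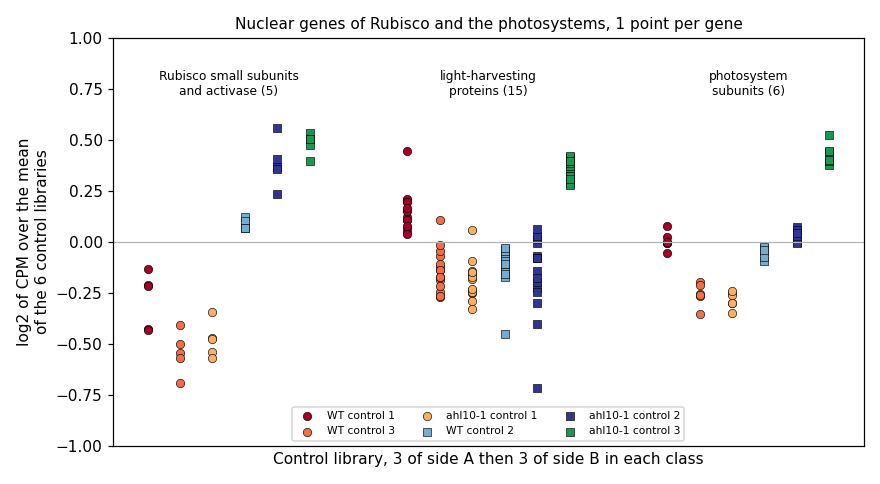
Log2 of CPM over the mean of the 6 control libraries, 1 point per gene, for 5 Rubisco genes, 15 light-harvesting genes and 6 photosystem subunits; circles are side A and squares side B. In each of the 5 Rubisco genes side A lies wholly below side B, and in none of the other 21, while ahl10-1 control 3 is high in every class.

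The I-box GATAAG and the G-box, both known from promoters of Rubisco small subunit genes, were in 2 of 5 (40%) and 1 of 5 (20%) of these windows, against 12.3% and 7.3% of all windows. RBCS2B, with the largest difference of the 5, held 3 I-boxes and 1 G-box, shown in capitals, and the middle I-box is on the strand opposite to the gene. The window is shown for that size.
RBCS2B (AT5G38420, chr5:15382072-15382321, minus strand): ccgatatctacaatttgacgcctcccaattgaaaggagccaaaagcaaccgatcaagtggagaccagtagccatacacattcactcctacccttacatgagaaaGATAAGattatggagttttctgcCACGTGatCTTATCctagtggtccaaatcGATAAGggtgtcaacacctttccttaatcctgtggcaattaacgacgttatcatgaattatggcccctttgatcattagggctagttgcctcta

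Clock genes showed small differences. In the evening list, 5 of 13 genes had side A above side B and 1 the reverse, with a median of -0.14 and no gene at 2-fold. In the morning list 1 of 11 lay each way and the median was 0.08. The genes named here were chosen after their values were seen. PRR5, an evening repressor of the morning genes, was at 24.3, 26.3 and 25.5 CPM on side A and at 17.3, 14.0 and 18.4 CPM on side B. PRR7, its relative in the morning list, was at 122, 131 and 126 CPM against 95.9, 63.7 and 91.0 CPM. Here no single library stands out on side A: both genes were even there and lower in each library of side B.

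FKF1, a blue light receptor of the flowering pathway, was at 11.9, 11.7 and 13.5 CPM against 10.5, 7.67 and 8.07 CPM, and TOC1, the evening partner of the morning repressors, at 100, 91.8 and 105 CPM against 90.5, 86.5 and 90.8 CPM. GI, an evening protein that stabilises FKF1, was at 51.8, 60.2 and 49.6 CPM against 45.4, 38.7 and 44.0 CPM. The morning repressors CCA1 and LHY overlapped, with differences of 0.20 and 0.38. The evening element AAATATCT was in 8 of 13 evening genes (61.5%) against 4.88% of all windows, 7 of 123 genes higher on A (5.69%) and 2 of 50 higher on B (4%). GI, lower on side B as well, held none. The windows of TOC1, PRR5 and FKF1 are shown because these genes, of the evening genes named here, hold the element; capitals mark the element, which is on the strand opposite to the gene except at the first of 2 places in FKF1.
TOC1 (AT5G61380, chr5:24674713-24674962, plus strand): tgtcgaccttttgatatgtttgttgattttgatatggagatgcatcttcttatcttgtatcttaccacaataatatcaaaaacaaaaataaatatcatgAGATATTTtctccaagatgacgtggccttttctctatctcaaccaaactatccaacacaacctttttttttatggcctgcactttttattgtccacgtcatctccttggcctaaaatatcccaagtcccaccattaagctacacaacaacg
PRR5 (AT5G24470, chr5:8358547-8358796, minus strand): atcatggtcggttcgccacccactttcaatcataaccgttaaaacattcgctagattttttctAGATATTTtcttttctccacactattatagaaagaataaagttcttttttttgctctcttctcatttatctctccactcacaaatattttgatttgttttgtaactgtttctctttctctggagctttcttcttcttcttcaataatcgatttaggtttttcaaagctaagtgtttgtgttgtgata
FKF1 (AT1G68050, chr1:25508389-25508638, plus strand): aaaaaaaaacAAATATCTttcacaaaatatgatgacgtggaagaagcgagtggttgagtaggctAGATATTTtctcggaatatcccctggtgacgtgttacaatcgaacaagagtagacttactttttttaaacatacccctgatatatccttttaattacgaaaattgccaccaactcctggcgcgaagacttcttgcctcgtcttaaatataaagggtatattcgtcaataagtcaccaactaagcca

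Shade and PIF target genes, which report phytochrome signalling and elongation growth, were lower on B on average in all 12, with a median of -0.38, and 5 of 12 had no overlap. PIF4, a growth-promoting factor under clock control that was chosen after its values were seen, was at 85.9, 81.4 and 89.3 CPM on side A and at 54.6, 42.0 and 73.1 CPM on side B. PIF4 was even on side A, as PRR5 and PRR7 were.

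Auxin and sugar genes were led by another library, ahl10-1 control 1. In the early auxin list it was highest in 16 of 24 genes. There 3 of 24 were higher on A without overlap (10.7% over all genes), and the median was -0.34, with -0.13 in WT and -0.35 in ahl10-1. WES1, which conjugates auxin to amino acids, followed at 2-fold with 66.4, 43.3 and 93.6 CPM on side A and 35.4, 21 and 27.8 CPM on side B. In the sugar starvation list ahl10-1 control 1 was highest in 12 of 18 genes. There 4 were higher on A and the median was -0.47, with -0.20 in WT and -0.56 in ahl10-1. ASN1, an asparagine synthetase induced by darkness and sugar shortage, was at 95.9, 63.8 and 224 CPM against 57.4, 22.2 and 51.9 CPM. The difference of ASN1 was -2.72 in ahl10-1 and -0.45 in WT.

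Glucosinolate synthesis, the making of sulphur-rich defence compounds, had 9 of 19 genes higher on A and 2 on B, with a median of -0.24, and ahl10-1 control 1 was highest in 11. MAM1, a chain-elongating enzyme of the aliphatic branch chosen after its values were seen, was at 322, 311 and 488 CPM against 287, 201 and 237 CPM. The 2 genes higher on B were TGG1 and TGG2, myrosinases that break glucosinolates down, at 2070, 2030 and 2020 CPM against 2310, 2400 and 2770 CPM for TGG1. The list's median was -0.10 in WT and -0.41 in ahl10-1.

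Genes of the growth machinery differed little, and none followed at 2-fold. Of 21 mitosis genes 3 were higher on A without overlap, with a median of -0.08. DNA replication genes had a median of -0.06 with 1 of 20 each way, and ribosome genes 0.06 with 0 of 22. Expansins and XTH cell wall enzymes had 3 of 19 higher on A, 2 on B and a median of -0.14. All of these stand beside a median of -0.02 over all genes.

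Markers of tissues gave small differences. Of 20 shoot genes 7 were higher on B and none on A, with a median of 0.22. FAMA, a stomatal lineage factor listed as FMA and chosen after its values were seen, was at 20.3, 18.9 and 17.8 CPM against 21.8, 22.1 and 23.4 CPM, and the epidermal wax gene CER6, listed as KCS6 and chosen likewise, at 238, 222 and 245 CPM against 270, 282 and 334 CPM. The shoot meristem gene STM, chosen likewise, went against this. It was at 9.27, 6.01 and 15.5 CPM on side A and at 8.19, 2.37 and 1.92 CPM on side B, so that ahl10-1 control 1 was highest. Its sides overlapped.

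Of 22 root genes 4 were higher on A, with a median of -0.20 (-0.36 in WT and 0.04 in ahl10-1), and of 14 root hair genes 1, with a median of -0.01 (-0.44 to 0.43 with each control library left out). Their summed levels set WT control 3 apart. Root hair genes summed to 97.3 CPM there, to 32.1 and 41.2 CPM in the other 2 libraries of side A and to 38.5 to 47.0 CPM on side B. Root genes summed to 4350 CPM in WT control 3 and to 3520 to 3630 CPM in the other 5 control libraries. The shoot genes summed to 1170, 1060 and 1260 CPM on side A against 1250, 1230 and 1390 CPM on side B, which overlap. The part of these tissue shares in the Rubisco and touch differences was not tested.

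Of the 33 lists, 7 held a gene that followed at 2-fold and 27 had a median within 0.25 of 0. Heat shock had a median of -0.10, with 1 of 16 genes higher on A, the small chaperone gene HSP17.6A, at 2-fold. Hypoxia had -0.20 (1 of 13 higher on B), sulphate deficiency -0.10 (2 of 15 on A and 4 on B), and flowering and age -0.06 (1 of 14 each way). Anthocyanin and flavonoid genes had -0.09 (1 of 16 higher on B), nitrate response -0.03 (3 of 20 on B and 1 on A), and iron 0.03 (2 of 21 on B and 1 on A). Phosphate starvation had 0.09 (3 of 16 on B), senescence 0.01 (2 of 12 on B and 1 on A), SWEET and STP sugar transport 0.02 (4 of 15 on B and 2 on A) and type-A ARR cytokinin response 0.20 (1 of 13 on B). Seed storage and oil body genes had -0.17 over 5 tested genes of 11, with no gene free of overlap and sums under 4 CPM in every control library.

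**Figure D5:**
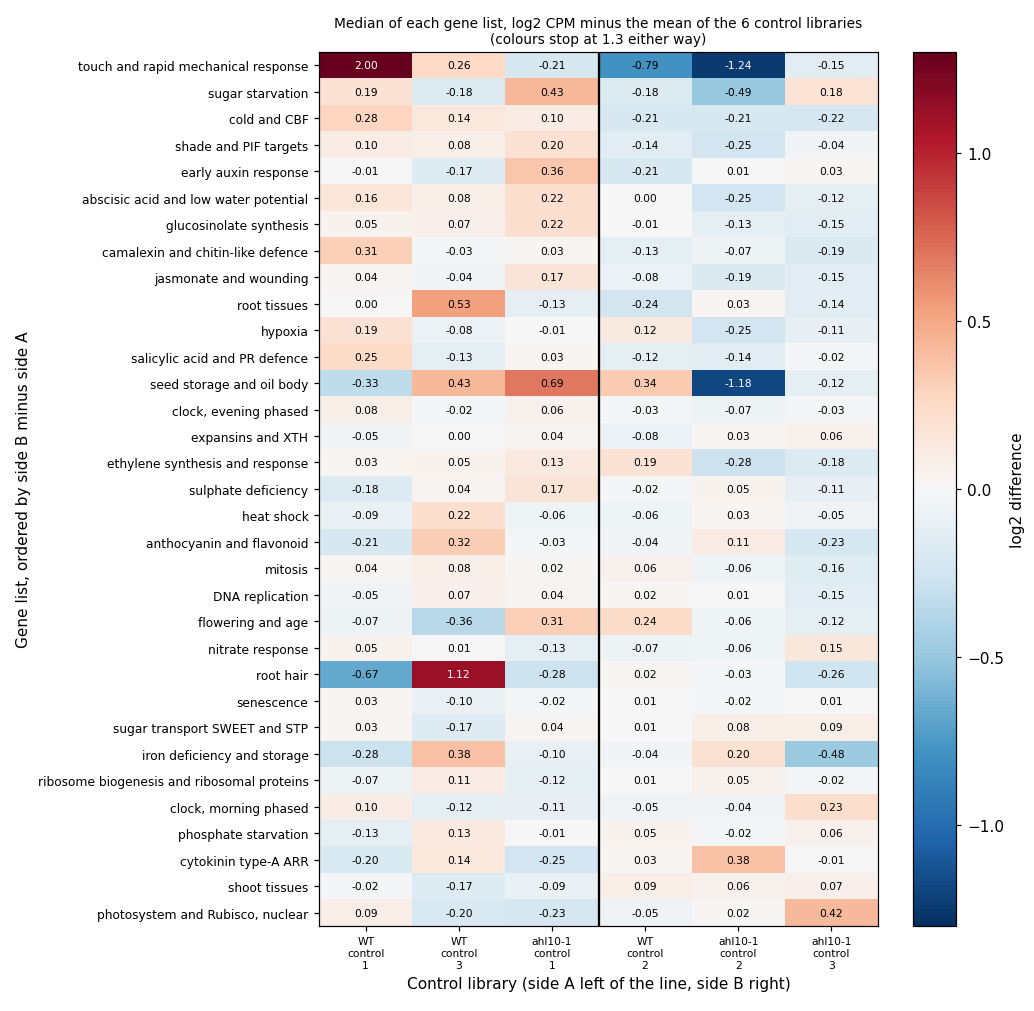
Median over the genes of each list of log2 CPM minus the mean of the 6 control libraries, by library, for 33 lists. The touch list runs from 2.00 in WT control 1 to -1.24 in ahl10-1 control 2, while root hair genes stand at 1.12 in WT control 3.

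The stress libraries were not used to choose the sides and allowed a test. Each was given the side of the control library of its genotype and number: WT stress 1 and 3 and ahl10-1 stress 1 stood for A, and WT stress 2 and ahl10-1 stress 2 and 3 for B. Deviations of same-numbered control and stress libraries correlated at 0.112, 0.11 and 0.188 in ahl10-1 and at -0.00388, 0.0164 and -0.04 in WT. Libraries of different numbers were not compared, so these values have no reference in either genotype. Beyond the shared number, the labels give no link between a control and a stress library, and such a link was not tested. With genotype in the model, edgeR's quasi-likelihood test called 1 of 22168 genes (0.00451%) at an adjusted p under 0.05. Before adjustment, 911 genes (4.11%) were under that level. DESeq2 called 56 of 20391 (0.275%), 46 of them higher on B. The gene called by edgeR was SAE1B (AT5G50680), a SUMO-activating enzyme subunit, with an adjusted p of 0.00195.

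The call of edgeR cannot be separated from the sharing of reads between 2 near-identical copies. AT5G50680 had 0 reads in each of the 3 stress libraries of A and 311.5, 286 and 279 reads in those of B. Its copy AT5G50580 had 707, 538 and 637 reads in the former and the same 311.5, 286 and 279 reads in the latter. All reads of the first copy were multi-mapped, and without multi-mapped reads edgeR called no gene. The copies together had 707, 538 and 637 reads on A and 623, 572 and 558 on B, which overlap. Among control libraries the first copy had 0 reads in WT control 1 and ahl10-1 control 2, 1 on each side, and 202.5 to 300.5 reads in the other 4. Both copies are among the 56 calls of DESeq2, at log2 differences of 10.78 and -0.96. So are AT1G24800 at 18.84 and TPS-CIN at -22.6, and whether shared reads lie behind these was not tested.

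Genes of the split pointed the same way in the stress libraries more often than not, and edgeR called none. DESeq2 called 1 of 59 genes higher on A that it could adjust, AT1G03940. Of 24 higher on B it called 3, AT1G31690, AT2G27420 and AT4G19430. Each lay in the direction of the control libraries. Over all genes DESeq2 called 56 of 20391 (0.275%). Of those 56 calls 46 were higher on B, so most calls shared the direction of these 3 genes. Of the 51 genes higher on B, 46 could be tested and 37 had the same sign, with a median log2 difference of 0.41. Of the 131 higher on A, 106 could be tested and 71 had the same sign, with a median of -0.19. The median over all genes was 0.00, and 10721 of 22168 were higher on B. Of the 12 genes with the widest gap and side B higher, LURP1, PCC1 and ACD6 differed here by -0.15, 0.49 and 0.13. NIT4 and AT4G19430, given next, had the smallest unadjusted p of these 12 by edgeR. NIT4 was at 9.25, 8.11 and 7.74 CPM in WT stress 1, WT stress 3 and ahl10-1 stress 1 and at 11.2, 13.5 and 12.2 CPM in WT stress 2, ahl10-1 stress 2 and ahl10-1 stress 3, without overlap. Its difference of 0.55 ± 0.12 (SE) had an adjusted p of 0.82 by edgeR. AT4G19430 differed by 0.90 ± 0.16 (SE), with an adjusted p of 0.747 by edgeR and of 0.000194 by DESeq2.

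RCA was at 4630, 4800 and 4410 CPM in the stress libraries of A and at 5570, 6220 and 7660 CPM in those of B, again without overlap, with a difference of 0.45. The 5 Rubisco genes differed by 0.31 to 0.47 and the 15 light-harvesting genes by -0.06 to 0.20, and all 20 had an adjusted p of 1 by edgeR. The touch list did not repeat its size: its median was -0.17, with 2 of 20 tested genes at an unadjusted p under 0.05. WRKY33 was at 22.7, 29.6 and 22.9 CPM in the stress libraries of A and at 28.7, 24.6 and 21.3 CPM in those of B, which overlap. PIF and shade genes had a median of -0.04 and evening clock genes -0.12.

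Over the 33 lists the medians in the stress libraries ran from -0.53 to 0.18, and edgeR called none of their genes. DESeq2 called 7 of 525 (1.33%), beside 0.275% of all genes. By DESeq2 these included the morning clock genes CCA1 (0.37, adjusted p 0.00132) and LHY (0.43, adjusted p 0.049). The other 5 were anthocyanin and flavonoid genes, AT5MAT, AT4G14090, TT7, GSTF12 and DFR, at -0.87 to -0.82. In the control libraries both clock genes overlapped between the sides. The lowest median belonged to anthocyanin and flavonoid genes, where 10 of 16 had an unadjusted p under 0.05 although the list had a median of -0.09 among control libraries. Their sums were 890, 1000 and 910 CPM in WT stress 1, WT stress 3 and ahl10-1 stress 1 and 627, 723 and 840 CPM in WT stress 2, ahl10-1 stress 2 and ahl10-1 stress 3. The 2 sets of sums do not overlap, and no gene of the list passed the adjusted threshold in edgeR's test. The next lowest median was -0.32, for cold and CBF genes.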

How the data were processed

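RNA-seq of 12 libraries of whole Arabidopsis seedlings was analysed, of which 6 are control libraries, grouped by their labels. Per the labels' protocols, oligo-dT selected RNA was sequenced from strand-specific libraries. The submitters' processing notes name CASAVA, bcl2fastq 1.8.4, Bowtie2, DESeq2 and the genome build TAIR10. The counter, the annotation and whether counting used strand are not given in the sources used here, so overlapping and antisense genes are uncertain. Whether the replicates grew from separate cultures is only stated as independent experiments.

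For each library the authors deposited estimated counts of reads per gene. Between 3.98% and 4.56% of the values of a library differed from their rounded value (no tolerance), and all were rounded. The deposited RPKM values served as an alternative only. The deposited fraction of multi-mapped reads per gene was used to remove such reads in another alternative. The authors' comparison tables were not used here. Of 33602 identifiers, 32835 matched the RefSeq gene table (TAIR10.1), and some list symbols were matched to identifiers by hand.

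Genes were kept by edgeR 4.0.16 filterByExpr (minimum count 10, minimum total 15) in R 4.3.3, and log2 CPM used TMM factors and a prior count of 2. A library with 0 reads of a gene allows up to 3 reads, which covers counting error only. The split got no test. The stress libraries were tested with glmQLFit (robust) and glmQLFTest, genotype and side in the model, 3 residual degrees of freedom and Benjamini-Hochberg adjustment. P-values measure the spread between these libraries. Scripts were tested on simulated data. Figures were drawn with matplotlib 3.10.9 under Python 3.11.15.

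The sides, the members, the 33 gene lists and the motifs were chosen with earlier results of these data known. Named genes were the 12 with the widest gap per side at 5 CPM or more, up to 4 members of each list following at 2-fold, AHL10, and genes called in the stress test. Other genes given with CPM were chosen after their values were seen, and not all are marked so where they are named. Alternatives were RLE factors, total-read scaling, no filter, a 5 CPM filter, a prior count of 0.5, log2(RPKM + 1), removal of multi-mapped reads, a 1.5-fold limit, each genotype alone and each library left out. For the stress test they also were DESeq2 1.42.0, limma 3.58.1 on log2(RPKM + 1), a replicate block and no genotype term.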

Additional observations from a re-analysis of the deposited data

Results flagged for a closer look

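Among the 6 control libraries, 15 of 36 named genes and 3 of 33 summed lists had 1 library apart, with a gap to its neighbour, as a share of the whole range of CPM, above Dixon's critical value for 6 samples. Chance alone gives about 1 such case in 20 groups, and these genes and lists are related. The named genes were chosen for wide gaps between sides, so the count of flags among them is not independent of the split.

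WT control 1 was the library apart, always as the highest, for RRTF1 (0.925 of the range), FBS1 (0.835), ORA47 (0.786), AT5G66650 (0.768), WRKY33 (0.752), ERF6 (0.75) and AT2G28400 (0.742). It was also apart for CNI1 (0.711), AT5G52750 (0.695), LOX4 (0.681), PBP1 (0.66) and WRKY53 (0.626). The summed touch and rapid mechanical response list had it apart by 0.766, with 2450 CPM there and 273 to 781 CPM in the other 5.

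The library ahl10-1 control 1 was apart and highest for JAZ7 (0.658) and ASN1 (0.635), and ahl10-1 control 2 for AT2G27420 (0.633). WT control 3 was apart and highest for the summed root tissue list (0.864) and the summed root hair list (0.772).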

How the results depend on the processing

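With each control library left out in turn, 74 to 131 genes followed the split with B higher and 177 to 411 with A higher, the most without WT control 2, against 51 and 131. With a library left out or a single genotype, the rule compares fewer libraries and is easier to meet. Those counts are therefore not comparable with 51 and 131. Without WT control 2 differences come from ahl10-1 only, and without ahl10-1 control 1 from WT only. Over other settings the counts (B, A) were 56 and 120 with RLE factors, 35 and 196 with total-read scaling, 97 and 186 without a filter, 10 and 34 at 5 CPM, 64 and 153 with a prior count of 0.5, and 49 and 126 without multi-mapped reads. They were 4 and 59 on log2(RPKM + 1), 243 and 428 at 1.5-fold, 189 and 447 in WT alone and 219 and 693 in ahl10-1 alone. Total-read scaling moved list medians to -0.21 (evening clock), -0.21 (expansins and XTH), -0.52 (cold and CBF), -0.06 (senescence) and 0.14 (shoot), with -0.09 over all genes. Lists were scored under RLE factors, under total-read scaling and with each control library left out, not under the other settings. Of these 264 list values, 226 moved by less than the spread within sides, 37 by more, and 1 reversed. A sign change counted as reversed only in a list whose median exceeded that spread. The list was hypoxia, at 0.13 without ahl10-1 control 1 and from -0.27 to 0.13 over the libraries left out. Lists with smaller medians changed sign too, such as root tissues (-0.36 to 0.04) and clock, morning phased (-0.05 to 0.17). Without each control library, medians ran from -0.40 to -0.07 for abscisic acid and low water potential, -0.13 to -0.01 for clock, evening phased, -0.65 to -0.38 for cold and CBF, -0.33 to 0.09 for ethylene synthesis and response, -0.12 to -0.08 for expansins and XTH, -0.29 to 0.50 for flowering and age, -0.41 to -0.10 for glucosinolate synthesis, -0.45 to -0.12 for jasmonate and wounding. They also ran from -0.13 to 0.14 for nitrate response, 0.00 to 0.18 for phosphate starvation, -0.03 to 0.14 for ribosome biogenesis and ribosomal proteins, -1.33 to 0.26 for seed storage and oil body, -0.08 to 0.06 for senescence, -0.40 to -0.26 for shade and PIF targets, 0.17 to 0.27 for shoot tissues, -0.07 to 0.11 for sugar transport SWEET and STP, -0.37 to 0.11 for sulphate deficiency. The touch list stayed below 0, at -1.97 to -0.49, which are its values in WT alone and in ahl10-1 alone. The 35 named genes under 16 settings and SAE1B under the settings of the stress test gave 559 values. Of these, 41 moved by more than that spread, all of named genes, and none reversed. The named genes were chosen without overlap between the sides. A reversal could therefore hardly occur with a library left out or in a single genotype, and nothing is read from its absence. For SAE1B, 1 value lost the call. What else lies behind these shifts was not tested.

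In the stress libraries, 0 genes were called at 5 CPM and 0 without multi-mapped reads, 56 by DESeq2 and 5 without a genotype term, against 1; RLE factors, no filter and limma each gave 1. Leaving out each stress library gave 1 to 26, with 26 without ahl10-1 stress 1. A replicate block gave 7, none of them the gene called without it. Same-numbered WT and ahl10-1 stress libraries correlated at 0.0594, 0.0523 and 0.105 in their deviations and control libraries at 0.148, 0.169 and -0.0997. Libraries of different numbers were not compared, so whether the numbers pair the genotypes was not tested. With 3 libraries a side, low genes are limited by counting error.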
